A study of Homo sapiens with 6 samples.

Results

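The genes described here are the proteasome subunits and their assembly factors, taken as every protein-coding gene of the count table whose symbol begins with PSMA, PSMB, PSMC, PSMD, PSME, PSMF or PSMG followed by a digit. The rule found 50 of the 20263 genes in the table, and it used names only, not measured values. By role they were 8 alpha and 7 beta subunits of the 20S core, 4 beta subunits of the immuno- and thymoproteasome, 6 ATPases and 11 other subunits of the 19S regulatory particle, 5 activators or inhibitors and 7 assembly factors. PSMC3IP and PSME3IP1 were matched through their names alone: they are named for proteins that bind a proteasome gene product and are not proteasome subunits. Messenger RNA was measured by RNA-seq in MV4-11, an established line of human acute myeloid leukemia with an internal tandem duplication of FLT3 and a KMT2A-AFF1 fusion, whose genotype the labels give as WT. The cells had been treated for 24 h with venetoclax and cyclosporine A together (VEN+CSA; the labels give no separate doses for the mixture), with 100 nM venetoclax alone (VEN), or with 2.5 µM cyclosporine A alone (CSA). Venetoclax inhibits the survival protein BCL2, and cyclosporine A inhibits calcineurin after binding cyclophilins. Each group had 2 libraries, 6 in all. Untreated cells were not analysed here, so each drug could be set only against the other and against the mixture. The labels do not say that replicates were separate cultures, and the p-values therefore measure the spread between libraries, which may be technical.

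The proteasome degrades proteins that carry chains of ubiquitin. Its 20S core is a barrel of alpha rings around beta rings, and the beta subunits PSMB5, PSMB6 and PSMB7 hold the cutting sites. In immune cells, and after interferon, PSMB8, PSMB9 and PSMB10 replace PSMB5, PSMB6 and PSMB7 and form the immunoproteasome, which makes peptides for MHC class I presentation. The 19S particle, built on a ring of ATPases, binds and unfolds ubiquitinated substrates, while PA28 (PSME1 with PSME2, or PSME3) and PA200 (PSME4) are other caps of the core. The transcription factor NFE2L1 raises proteasome genes together when proteasome activity is short. Blood cells of the myeloid line normally hold a mixture of standard and immuno-type cores.

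Promoter stretches are shown for 8 members, to let the letters of the interferon-type and NFE2L1-type motifs be seen in members of several roles. They come from RefSeq (GRCh38.p14), which held a window of 250 bases before to 50 bases after the start for 44 of the 50 members. Every stretch is printed 5′ to 3′ on the strand of its gene, with the matched motif, or its reverse complement, in capitals. The first 4 hold a pair of GAAA copies with 2 bases of any kind between them, the core of an interferon-stimulated element, in the promoters of 2 immunoproteasome subunits and of both PA28 genes that act with them, at chr6:32844016-32844077 (minus strand), chr16:67936836-67936897 (minus), chr14:24136173-24136234 (plus) and chr14:24146603-24146664 (minus).
PSMB8: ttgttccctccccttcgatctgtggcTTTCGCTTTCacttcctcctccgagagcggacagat
PSMB10: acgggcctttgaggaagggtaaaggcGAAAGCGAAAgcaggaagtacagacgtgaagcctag
PSME1: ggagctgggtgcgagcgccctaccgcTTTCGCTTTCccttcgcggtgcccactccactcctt
PSME2: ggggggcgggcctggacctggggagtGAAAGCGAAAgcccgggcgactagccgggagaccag

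The other 4 hold TGACNNNGC, the core of the antioxidant-type element that NFE2L1 and NFE2L2 bind, in genes of 4 different roles, at chr17:67366708-67366768 (minus), chr19:39971166-39971214 (plus), chr17:38752611-38752671 (plus) and chr21:39183600-39183660 (minus).
PSMD12: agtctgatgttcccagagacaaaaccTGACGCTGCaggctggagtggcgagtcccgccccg
PSMC4: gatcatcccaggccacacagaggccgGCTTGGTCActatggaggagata
PSMB3: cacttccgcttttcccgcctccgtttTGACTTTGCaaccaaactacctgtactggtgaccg
PSMG1: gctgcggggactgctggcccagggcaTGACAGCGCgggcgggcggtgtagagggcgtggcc

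Searching both strands of every window, TGACNNNGC was found in 15 of the 44 members (34.1%), against 17.9% of 15842 protein-coding genes with a window. The spaced GAAA pair was found in 7 members (15.9%), against 4.16% of all genes: PSMA4, PSMB4, PSMB8, PSMB10, PSME1, PSME2 and PSMG4. CCAAT was found in 22 of the 44, where 42.1% of all genes held it, and TTCNNNGAA, the core that STAT proteins bind, in 8 members (18.2%), against 8.98%. No match of TTCNNNGAA overlapped a GAAA pair in a member. These shares describe letters in fixed windows and say nothing about binding in the cells.

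Total counts per library ran from 26567900 to 30738957. Every myeloid marker checked, 8 of 8, was detected in each library (MPO lowest, at 5.46 to 9.32 CPM, a count scaled for depth by TMM), while CD3E, CD3D, HBB and EPCAM had no count in any library. The second VEN library stood apart. Of its counts, 41.5% fell on genes of the mitochondrial genome, and 7.41% to 15.2% did in the other 5 libraries, and its TMM scaling factor was 0.657, against 1.02 to 1.12 in the others. Members took 0.615% and 0.537% of all counts in the VEN+CSA libraries, 0.567% and 0.310% in the VEN libraries and 0.590% and 0.565% in the CSA libraries. Of the counts from genes not encoded in mitochondria, the members' share was still lowest in the second VEN library. It was 0.531% there and 0.616% to 0.669% in the other 5 libraries. Results that rest on the VEN group are therefore also given without that library, in fits where the VEN group is 1 library and is taken to vary like the other groups.

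All 50 members but PSMB11 passed the filter on low counts. PSMB11, the beta subunit of the thymoproteasome, which is made in thymic epithelium, had 0 counts in 5 libraries and a CPM of 0.0600 in the second CSA library. Levels were compared between genes as CPM per kb of exon, taking the median over the 6 libraries. The standard beta subunits had the highest median of any role, 118 CPM per kb, and ran from 38.1 for PSMB5 to 212 for PSMB1. The alpha subunits without PSMA8 had a median of 58.5 CPM per kb, from 19.3 for PSMA5 to 116 for PSMA7. PSMA8, a testis-type alpha subunit of the meiotic proteasome, stood at 3.69 CPM per kb. Since exon length here is the union over all annotated transcripts, a gene with a long rare exon is given too low a level, so ranks among subunits of the same ring carry that limit.

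The 19S subunits lay close to the alpha subunits, with medians of 50.2 CPM per kb for the ATPases (PSMC6 27.3 to PSMC3 91.9) and 57.0 for the others (PSMD12 28.8 to PSMD3 108). Activators and inhibitors had a median of 51.0 CPM per kb, from PSME4 at 18.9 to PSME1 at 81.7. The immunoproteasome subunits had a median of 47.3 CPM per kb, but were far apart, with PSMB9 at 5.55 and PSMB10 at 65.5. Assembly factors were the lowest of the proteasome roles, with a median of 10.6 CPM per kb between PSMG4 at 1.91 and PSMG1 at 25.1.

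**Figure D1:**
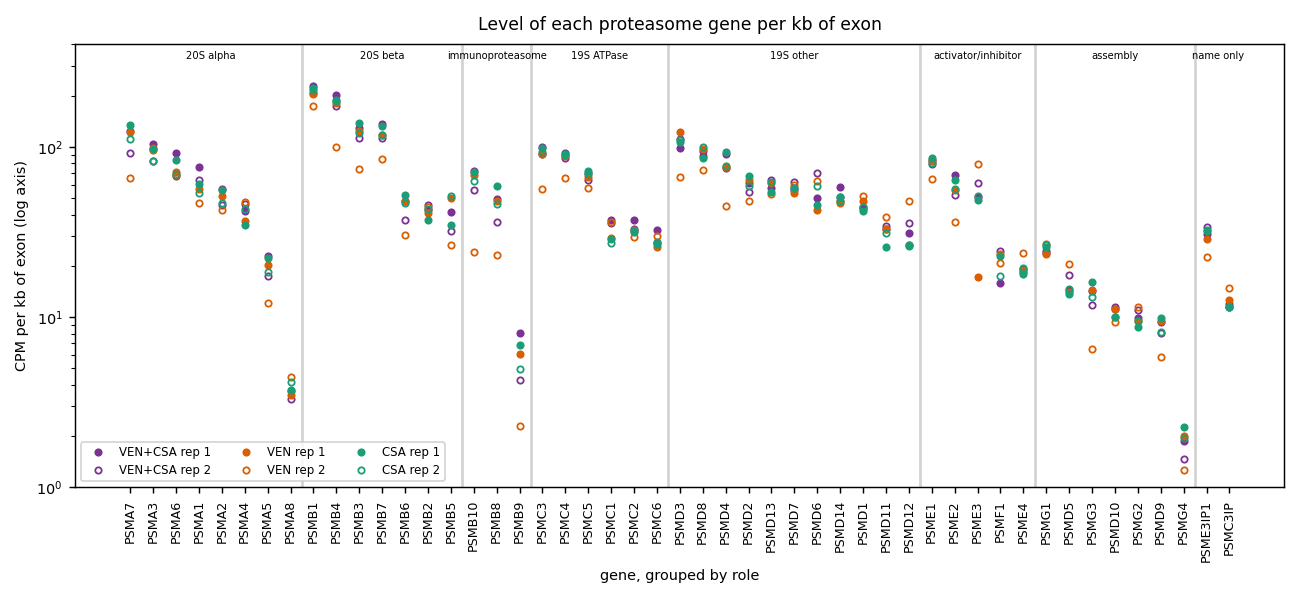
CPM per kb of exon (log axis) of each detected member in each of the 6 libraries, grouped by role, with filled points for replicate 1 and open points for replicate 2 of VEN+CSA, VEN and CSA. By their medians PSMG4, PSMA8 and PSMB9 sit lowest, and assembly factors have the lowest median of the proteasome roles. The open VEN point is the lowest of 6 for most beta and immunoproteasome subunits.

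The 3 comparisons ask how the mixture differs from each drug and how the drugs differ from each other. No member was called in any of them by edgeR's quasi-likelihood test at an adjusted p under 0.05, where 0% of the 12690 genes tested were called. No member had an unadjusted p under 0.05 either, against 10.8% of genes for VEN+CSA against VEN, 3.64% for VEN+CSA against CSA and 4.8% for VEN against CSA. DESeq2 called no member as well, while it called 2.45%, 0.473% and 0.496% of genes in the same order of comparisons. All 49 tested members had an estimated change of less than 1.5-fold in each comparison, which held for 80.6%, 91.2% and 82.4% of all genes. A miss of the threshold does not show equal levels, and the width of the intervals says how much was left unseen. The 95% interval of the fold change lay inside 2-fold either way for 39 of 49 members in VEN+CSA against VEN, for 40 in VEN+CSA against CSA and for 34 in VEN against CSA. This held for 53.5%, 63.1% and 52.7% of all genes.

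Members leaned to one side where the VEN group was part of the comparison. The median log2 fold change of the members was 0.14 in VEN+CSA against VEN (37 above 0 and 12 below), beside −0.0083 over all genes. It was −0.13 in VEN against CSA (16 above and 33 below), beside −0.0032 over all genes. In VEN+CSA against CSA it was −0.0021 (24 above and 25 below). Without the second VEN library the members' median was 0.029 in VEN+CSA against VEN (30 above 0 and 19 below). It was −0.019 in VEN against CSA (20 above and 29 below). Of all genes, 50.9% and 48.4% were above 0 in these 2 fits. Both medians were thus nearer 0 without that library, while the counts kept the same side. With scaling by library size alone, the median over all genes was 0.26, −0.04 and −0.31 in the 3 comparisons, and changes here are relative to TMM scaling.

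**Figure D2:**
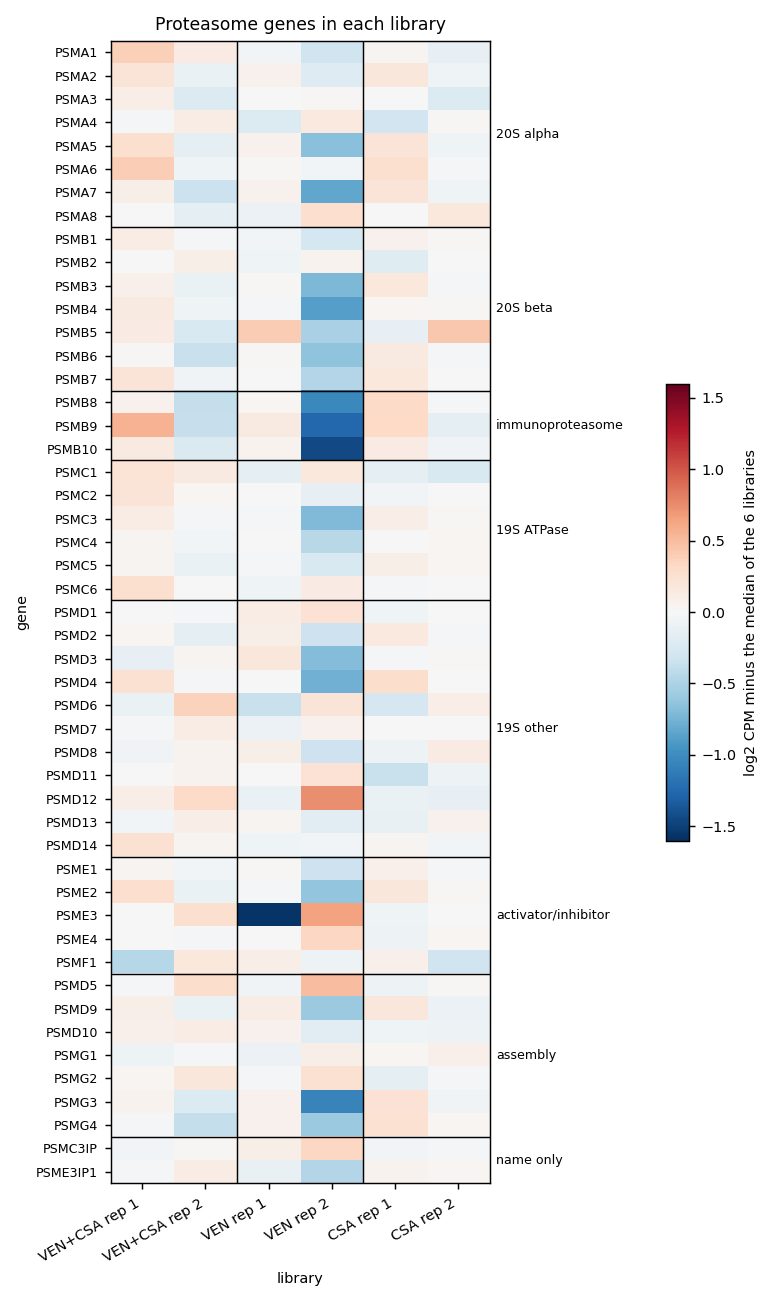
Log2 CPM of 49 members in each library minus the gene's median over the 6 libraries, with genes grouped by role and libraries by treatment. The column of the second VEN library is lowest for the immunoproteasome and most beta subunits, and the single dark cell in the column of the first VEN library is PSME3.

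Both VEN+CSA libraries were above both VEN libraries for 6 members (background 19.2% of genes) and below both for 2 (18.9%). The 6 were PSMA1, PSMB1, PSMC2, PSMD14, PSMD10 and PSME3IP1, and the 2 were PSMD1 and PSMC3IP. Against CSA, both VEN+CSA libraries were above both CSA libraries for 8 members (23.5% of genes) and below both for 3 (23.7%). Above were PSMA1, PSMC1, PSMC2, PSMD11, PSMD12, PSMD14, PSMD10 and PSMG2, and below were PSMA8, PSMG1 and PSMG4. The VEN libraries were both above both CSA libraries for 4 members (20.8% of genes) and both below for 8 (19.9%). The 4 were PSMC1, PSMD1, PSMD11 and PSMC3IP, and the 8 were PSMB1, PSMB4, PSMC3, PSMC4, PSMC5, PSMD4, PSME2 and PSME3IP1. Out of 49 members, each of these counts is a smaller share than that over all genes.

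**Figure D3:**
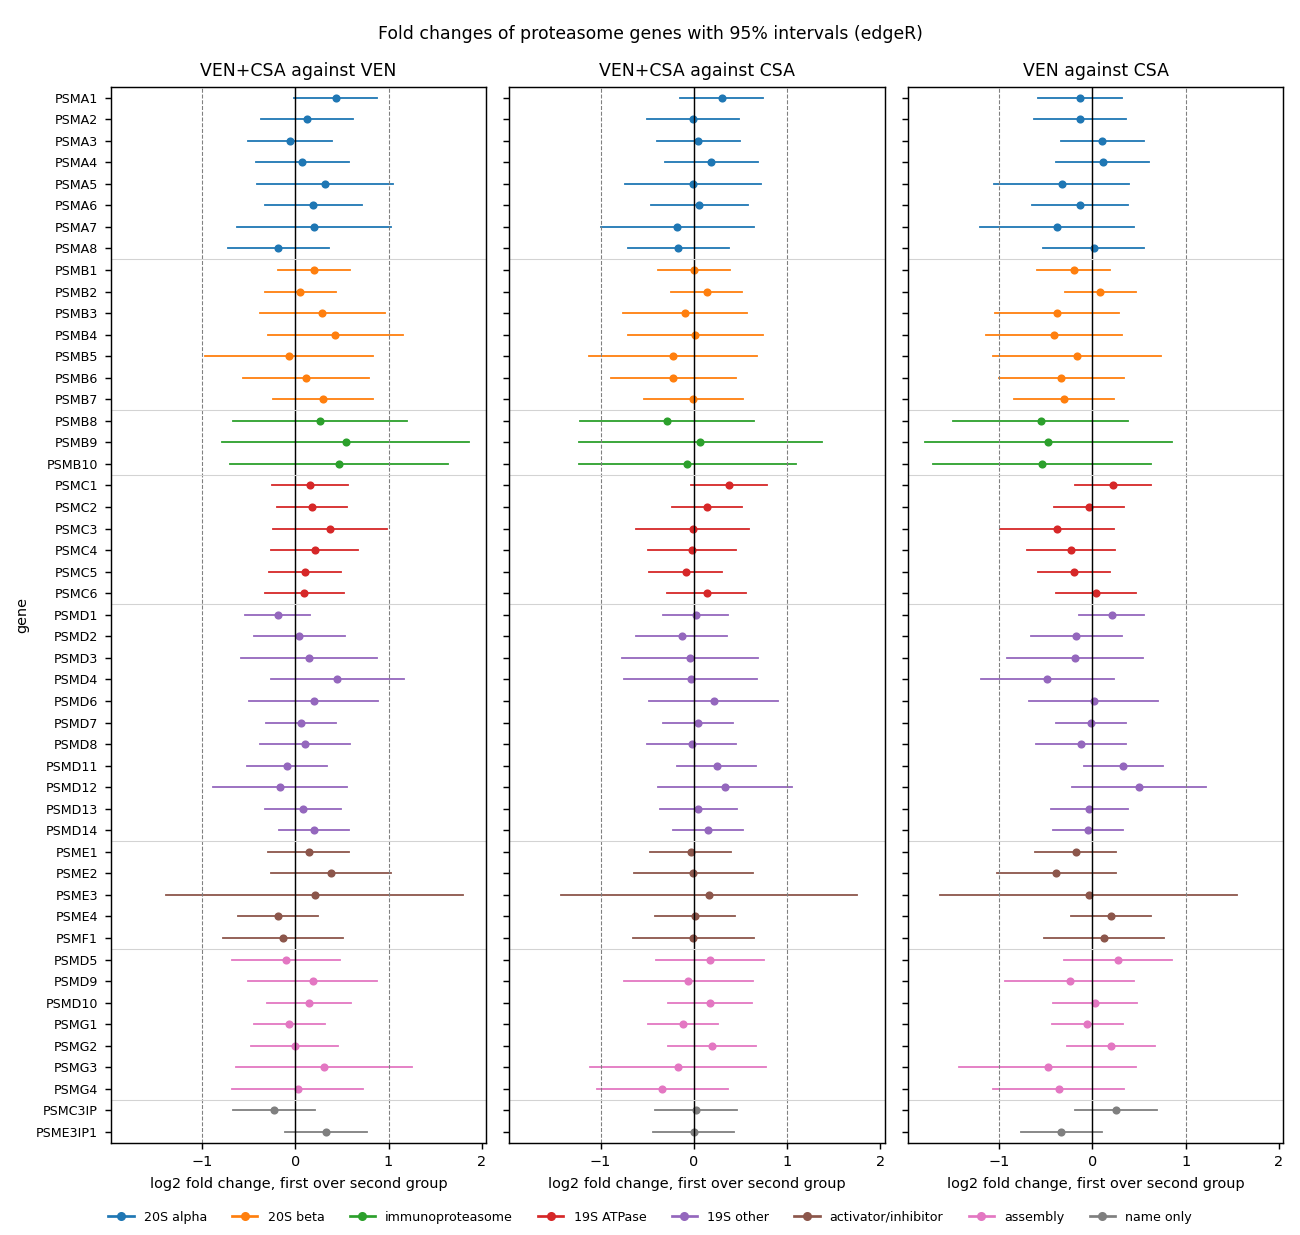
Log2 fold change (point) and 95% interval (line) of 49 members in the 3 comparisons, from edgeR with 6 libraries, coloured by role; dashed lines mark a 2-fold change. Every interval includes 0, and the widest in each comparison are those of PSME3, PSMB9, PSMB10 and PSMG3.

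Among the alpha subunits, which form the outer rings and the gate of the core, 6 of 8 had a log2 fold change above 0 in VEN+CSA against VEN (median 0.16), 4 of 8 in VEN+CSA against CSA (median 0.02) and 3 of 8 in VEN against CSA (median −0.13). These medians were 0.0087 in VEN+CSA against VEN and −0.011 in VEN against CSA (1 of 8 above 0) without the second VEN library. With the GC trend removed, 0 of 8 were above 0 in VEN against CSA (median −0.27). PSMA1 had the smallest p of all members in the first of these. It stood at 171 and 143 CPM in VEN+CSA, at 128 and 105 CPM in VEN and at 135 and 120.4 CPM in CSA. Both VEN+CSA libraries were above the other 4. The log2 fold change was 0.43 (SE 0.18) against VEN (adjusted p = 0.475 by edgeR; 0.31 without the second VEN library) and 0.30 (SE 0.18) against CSA (adjusted p = 1.00). PSMA1 shares its strand with a readthrough gene that is also in the table, so reads between the 2 may have been split.

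The standard beta subunits had medians of 0.20 in VEN+CSA against VEN (6 of 7 above 0), −0.0057 in VEN+CSA against CSA (3 of 7) and −0.30 in VEN against CSA (1 of 7). In the comparisons with VEN they were 0.07 and −0.05 without the second VEN library. PSMB5, the chymotrypsin-like site and the main target of bortezomib, stood at 60.7 and 46.9 CPM in VEN+CSA, 73.7 and 38.8 CPM in VEN and 50.9 and 75.0 CPM in CSA. Every group overlapped the others, and the replicates of VEN and of CSA lay further apart than the group means. PSMB6, the caspase-like site, stood at 41.7 and 32.2 CPM in VEN+CSA, 41.9 and 26.4 CPM in VEN and 45.5 and 40.7 CPM in CSA. For PSMB7, the trypsin-like site, the values were 133 and 111 CPM in VEN+CSA, 115 and 83.0 CPM in VEN and 129.5 and 115 CPM in CSA. The second VEN library was below both CSA libraries for all 3 genes. PSMB6 had one of the 3 smallest p among members below 0 in VEN+CSA against CSA, with a log2 fold change of −0.22 (SE 0.27, adjusted p = 1.00 by edgeR).

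The immunoproteasome subunits were detected in every library, and the groups overlapped for each of them in all 3 comparisons. PSMB8, which takes the place of PSMB5, stood at 76.9 and 56.0 CPM in VEN+CSA, 74.6 and 35.8 CPM in VEN and 90.8 and 71.8 CPM in CSA. PSMB10, which takes the place of PSMB7, stood at 87.8 and 68.2 CPM in VEN+CSA, 83.1 and 29.3 CPM in VEN and 87.2 and 76.5 CPM in CSA. In both genes the second VEN library was the lowest of 6, and the first VEN library lay among the other 4. PSMB9, which takes the place of PSMB6, was far lower, at 7.47 and 3.93 CPM in VEN+CSA, 5.63 and 2.12 CPM in VEN and 6.31 and 4.59 CPM in CSA. The log2 fold changes in VEN against CSA were −0.56 (SE 0.38) for PSMB8, −0.47 (SE 0.54) for PSMB9 and −0.54 (SE 0.47) for PSMB10, and adjusted p was 0.633, 0.694 and 0.642 by edgeR. PSMB8 stood at −0.29 (SE 0.38, adjusted p = 1.00) in VEN+CSA against CSA. The median of the 3 in VEN against CSA was 0.02 without the second VEN library and −0.54 with it. In VEN+CSA against VEN it was −0.087 without that library (1 of 3 above 0) and 0.47 with it (3 of 3). In VEN+CSA against CSA it was −0.07 (1 of 3). PSMB9 overlaps TAP1 on the opposite strand over 8770 bases and PSMB8 over 568 bases. The sources used here do not say whether reads were counted by strand.

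Each immuno subunit was also set against the standard subunit it replaces, as a ratio of levels per kb. PSMB8 over PSMB5 was 1.20 and 1.13 in VEN+CSA, 0.957 and 0.873 in VEN and 1.69 and 0.904 in CSA, so the ratio lay between 0.873 and 1.20 in 5 libraries and was highest in the first CSA library. PSMB10 over PSMB7 was 0.532 and 0.495 in VEN+CSA, 0.580 and 0.284 in VEN and 0.541 and 0.534 in CSA. PSMB9 over PSMB6 was 0.170 and 0.115 in VEN+CSA, 0.127 and 0.0761 in VEN and 0.131 and 0.107 in CSA. Thus PSMB9 was the immuno subunit furthest below its partner in every library. In log2 units the ratio PSMB8/PSMB5 averaged 0.22 ± 0.06 in VEN+CSA and −0.13 ± 0.09 in VEN (SD, n = 2 each), with p = 0.333 by a two-sided exact permutation test, which is the smallest p that 2 libraries against 2 allow. Over the 3 ratios and 3 comparisons the exact p ranged from 0.333 to 1, so none of the 9 could pass 0.05.

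In the 19S ATPases, which unfold the substrate, all 6 had a log2 fold change above 0 in VEN+CSA against VEN (median 0.17), 3 of 6 in VEN+CSA against CSA (median 0.06) and 2 of 6 in VEN against CSA (median −0.12). Both comparisons with VEN gave values nearer 0 without the second VEN library, 0.10 and −0.05. PSMC1 had the smallest p of all members in VEN+CSA against CSA. Its levels were 166 and 158 CPM in VEN+CSA, 130.1 and 161 CPM in VEN and 128 and 122 CPM in CSA. Both VEN+CSA libraries lay above both CSA libraries, with a log2 fold change of 0.38 (SE 0.17, adjusted p = 1.00 by edgeR), while the second VEN library lay between them. PSMC3 stood at 158 and 143 CPM in VEN+CSA, 143 and 89.2 CPM in VEN and 156 and 147 CPM in CSA. Its log2 fold change in VEN against CSA was −0.38 (SE 0.25, adjusted p = 0.633 by edgeR), and −0.09 without the second VEN library. PSMC1 overlaps NRDE2 on the opposite strand.

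The other 19S subunits form the lid, which holds the deubiquitinase PSMD14, and the base with the ubiquitin receptor PSMD4 and the scaffolds PSMD1 and PSMD2. Their medians were 0.08 in VEN+CSA against VEN (8 of 11 above 0), 0.05 in VEN+CSA against CSA (7 of 11) and −0.03 in VEN against CSA (4 of 11). With the second VEN library left out, those with VEN were 0.04 and 0.02. PSMD4 stood at 124 and 102 CPM in VEN+CSA, 104 and 61.2 CPM in VEN and 127 and 105 CPM in CSA. Its log2 fold changes were 0.45 (SE 0.29, adjusted p = 0.587 by edgeR) in VEN+CSA against VEN and −0.48 (SE 0.29, adjusted p = 0.633) in VEN against CSA, and 0.12 and −0.16 without the second VEN library. PSMD1, the largest scaffold of the base, stood at 148 and 145 CPM in VEN+CSA, 160 and 172 CPM in VEN and 141 and 147 CPM in CSA. Both VEN libraries were the highest, at log2 fold changes of −0.19 (SE 0.14) in VEN+CSA against VEN and 0.21 (SE 0.14) in VEN against CSA, which missed the threshold (−0.13 and 0.15 without the second VEN library).

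PSMD11 and PSMD12, 2 lid subunits, had the smallest p among members above 0 in VEN against CSA. PSMD11, which raises proteasome assembly in human embryonic stem cells, stood at 139.5 and 145 CPM in VEN+CSA, 139 and 163 CPM in VEN and 109 and 131 CPM in CSA. All 4 libraries with venetoclax were above both CSA libraries, at a log2 fold change of 0.33 (SE 0.17, adjusted p = 0.633 by edgeR) in VEN against CSA, and 0.21 without the second VEN library. PSMD12 stood at 137 and 157 CPM in VEN+CSA, 117 and 212 CPM in VEN and 117 and 115 CPM in CSA. The second VEN library was the highest of 6 and the first VEN library sat with the CSA libraries. The log2 fold change of PSMD12 in VEN against CSA was 0.50 (SE 0.29, adjusted p = 0.633 by edgeR), 0.0043 without that library and 0.13 with the GC trend removed.

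Of the caps and the inhibitor, PSME3 varied most of all members. PSME3 (PA28γ), a nuclear cap that lets the core degrade some proteins without ubiquitin, stood at 228 and 275 CPM in VEN+CSA, 77.6 and 358 CPM in VEN and 218 and 230 CPM in CSA. The first VEN library was the lowest of 6 and the second was the highest. The log2 fold change was 0.21 (SE 0.64, adjusted p = 0.913 by edgeR) in VEN+CSA against VEN. Without the second VEN library, which leaves 1 VEN library and a spread taken from the other groups, it was 1.70 (SE 0.15), with adjusted p = 0.0491 by edgeR, and PSME3 was then the 1 member called, where 0.379% of genes were. Without the first VEN library it was −0.51, with adjusted p = 0.0530. DESeq2 in the same 5 libraries, with the same limit, gave PSME3 1.70 (SE 0.19, adjusted p = 7.54e-17) in VEN+CSA against VEN, where it called 3.79% of genes, and −1.53 (SE 0.19, adjusted p = 5.1e-13) in VEN against CSA, where it called 0.827%. It called no member in VEN+CSA against CSA, where it called 1.98% of genes. In VEN against CSA edgeR gave PSME3 −1.54 without the second VEN library and did not call it there. Without the first VEN library edgeR gave 0.68 in that comparison and called it higher. Each of these fits rests on 1 VEN library. The sign of the PSME3 difference thus turned, in each comparison with VEN, with which VEN library was kept.

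A first VEN library under 0.5 times the lowest of the other 5 was found for 63 of 12690 genes (0.497%). It was found for 8 of the 8840 genes with a mean CPM of at least 10 (0.0905%), of which PSME3 was the 1 member. This pattern was drawn from PSME3 in these same libraries, so the shares do not measure how unusual PSME3 is. The gene overlaps BECN1 on the opposite strand over 8966 bases. BECN1 stood at 75.9 and 89.1 CPM in VEN+CSA, 66.1 and 66.6 CPM in VEN and 83.9 and 70.5 CPM in CSA, with no such gap between the VEN libraries. B2M, the light chain of MHC class I, was uneven in the VEN pair in the same direction as PSME3 and also in the CSA pair, at 81.3 and 82.7 CPM in VEN+CSA, 66.0 and 301 CPM in VEN and 274 and 65.2 CPM in CSA.

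PSME1 and PSME2, which form the interferon-responsive PA28 cap, moved within narrower limits. PSME1 stood at 103 and 96.7 CPM in VEN+CSA, 101 and 79.3 CPM in VEN and 106 and 98.4 CPM in CSA. PSME2 stood at 101 and 77.5 CPM in VEN+CSA, 82.9 and 54.2 CPM in VEN and 94.7 and 84.5 CPM in CSA. Both VEN libraries lay below both CSA libraries for PSME2, at a log2 fold change of −0.39 (SE 0.26, adjusted p = 0.633 by edgeR), and −0.12 without the second VEN library. PSME4 (PA200), a large cap known for histone degradation, stood at 135 and 131 CPM in VEN+CSA, 134 and 169 CPM in VEN and 127 and 137 CPM in CSA. Its log2 fold change in VEN+CSA against VEN, −0.18 (SE 0.17), was 0.0038 without the second VEN library. PSMF1 (PI31), an inhibitor of the core in the test tube, stood at 70.5 and 108 CPM in VEN+CSA, 104 and 91.7 CPM in VEN and 102 and 77.6 CPM in CSA. The VEN+CSA libraries were the lowest and the highest of the 6, so their spread covered both other groups.

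The assembly factors help rings and base form before the subunits lock. Their medians were 0.02 in VEN+CSA against VEN (4 of 7 above 0), −0.06 in VEN+CSA against CSA (3 of 7) and −0.05 in VEN against CSA (3 of 7). The comparisons with VEN gave 0.031 and −0.026 without the second VEN library. PSMG1 and PSMG2, a pair that starts the alpha ring, stood at 51.0 and 52.8 CPM (PSMG1) and 19.4 and 21.6 CPM (PSMG2) in VEN+CSA. In VEN they stood at 50.8 and 57.8 CPM (PSMG1) and 18.6 and 22.6 CPM (PSMG2), and in CSA at 55.5 and 57.1 CPM (PSMG1) and 17.1 and 18.7 CPM (PSMG2). PSMG1 was the member that varied least over the 6 libraries, with a ratio of highest to lowest library of 1.14. The second pair of the alpha ring, PSMG3 and PSMG4, varied more. PSMG3 stood at 27.8 and 23.1 CPM in VEN+CSA, 28.1 and 12.8 CPM in VEN and 31.5 and 25.8 CPM in CSA. PSMG4 stood at 10.8 and 8.51 CPM in VEN+CSA, 11.6 and 7.37 CPM in VEN and 13.1 and 11.3 CPM in CSA. For PSMG4 both VEN+CSA libraries were below both CSA libraries, at a log2 fold change of −0.34 (SE 0.28, adjusted p = 1.00 by edgeR) in VEN+CSA against CSA.

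PSMD5, PSMD9 and PSMD10 are chaperones of the ATPase ring. PSMD5 stood at 49.5 and 61.1 CPM in VEN+CSA, 48.3 and 70.4 CPM in VEN and 47.2 and 50.7 CPM in CSA. PSMD9 stood at 25.9 and 22.6 CPM in VEN+CSA, 26.4 and 16.1 CPM in VEN and 27.7 and 22.8 CPM in CSA. PSMD10 (gankyrin), which is also studied as an oncoprotein, stood at 17.3 and 17.8 CPM in VEN+CSA, 17.3 and 14.5 CPM in VEN and 15.6 and 15.6 CPM in CSA. Both VEN+CSA libraries were above the other 4 for PSMD10, but the first only narrowly, at 17.34 CPM against 17.25 CPM in the first VEN library. The log2 fold changes of PSMD10, 0.14 (SE 0.18) against VEN and 0.18 (SE 0.18) against CSA, missed the threshold. That against VEN was 0.031 without the second VEN library. PSMC3IP, a recombination factor, stood at 17.6 and 18.4 CPM in VEN+CSA, 19.4 and 22.8 CPM in VEN and 17.6 and 17.8 CPM in CSA. PSME3IP1, a nuclear protein that binds PSME3, stood at 90.7 and 101 CPM in VEN+CSA, 85.3 and 67.1 CPM in VEN and 96.6 and 95.2 CPM in CSA. In VEN+CSA against VEN their log2 fold changes were −0.23 (SE 0.18) for PSMC3IP and 0.33 (SE 0.18) for PSME3IP1, and in VEN against CSA PSME3IP1 stood at −0.33 (SE 0.18, adjusted p = 0.633 by edgeR). Without the second VEN library these were −0.10, 0.17 and −0.18.

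Variation over the libraries was described by the ratio of the highest to the lowest one. This ratio had a median of 1.49 over 49 members, against 1.75 over all tested genes and 1.61 over 8163 genes in the mean CPM range of the members with a mean of at least 10 CPM. Without the second VEN library these medians were 1.25, 1.38 and 1.30. A ratio over 2 was seen for 8 members (16.3%) with all libraries, against 37.2% of all tested genes and 26.3% of those in that range. Without the second VEN library it was seen for PSME3 alone (2.04% of members), against 17.0% and 6.49%. The other 7 with all libraries were PSMB9, PSMB10, PSMB8, PSMG3, PSMD4, PSMA7 and PSMB4.

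The 2 VEN libraries differed from each other by amounts that varied between roles. The log2 difference, second minus first VEN library, had a median of −0.25 over the 49 members, and 31 were lower in the second library, against a median of 0.00 over all genes, of which 49.8% were lower. All 3 immunoproteasome subunits were lower (median −1.38), as were 6 of 7 standard beta subunits (median −0.66) and 5 of 8 alpha subunits (median −0.16). The 11 other 19S subunits had a median of 0.03, with 5 lower. The difference went with the GC content of the transcript, at r = −0.51 over members and −0.50 over all genes, and with the log2 exon length, at 0.48 and 0.21. These are descriptions across genes whose points all come from the same pair of libraries, and the part of GC content in the result was not tested. PSMB10 had a GC content of 60.1% and the lowest difference, −1.50, and PSMD12 had 37.9% and a difference of 0.86. Other members did not follow the trend: PSMA5 had 37.25% and −0.74, and PSMG2 had 52.2% and 0.28.

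**Figure D4:**
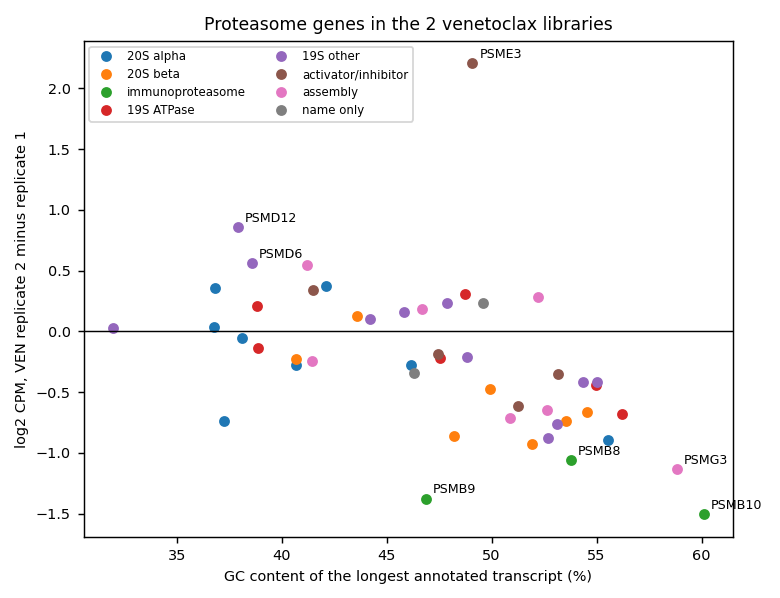
Difference in log2 CPM between the second and the first VEN library (y) against the GC content of the longest annotated transcript in % (x) for 49 members, coloured by role. Members of high GC content tend to be lower in the second library, all 3 immunoproteasome subunits lie below −1 on this scale, and PSME3 stands alone at 2.21.

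With the first VEN library left out, 10 members were called in VEN+CSA against VEN, 9 higher and 1 lower, where 26.4% of genes were called. In VEN against CSA 16 were called, 2 higher and 14 lower, where 33.8% of genes were called. PSMB10, for example, had log2 fold changes of 1.42 (SE 0.21) and −1.48 (SE 0.21) in these 2 comparisons, with adjusted p = 0.0179 and 0.0165 by edgeR. PSMD12 went the other way, at −0.53 (SE 0.12, adjusted p = 0.0367) and 0.86 (SE 0.12, adjusted p = 0.0165). In these fits the VEN group is the second VEN library alone, which is taken to vary like the other groups.

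Genes that work with the proteasome were looked at as a list of 19, among them the maturation factor POMP, the ubiquitin receptor ADRM1, the deubiquitinases USP14 and UCHL5, NFE2L1 with its activating protease DDI2, and the shuttle proteins of the UBQLN family. None was called by edgeR in any comparison with all 6 libraries, where 0% of genes were called. The medians of the 19 were −0.16 in VEN+CSA against VEN, 0.02 in VEN+CSA against CSA and 0.13 in VEN against CSA. Leaving out the second VEN library gave 0.023 in VEN+CSA against VEN, with the sign turned, and 0.042 in VEN against CSA. NFE2L1 stood at 224 and 168 CPM in VEN+CSA, 168 and 92.2 CPM in VEN and 132 and 127 CPM in CSA. Both VEN+CSA libraries were above the other 4, the second by less than 1 CPM, with log2 fold changes of 0.59 (SE 0.31, adjusted p = 0.537 by edgeR) against VEN and 0.59 (SE 0.31, adjusted p = 1.00) against CSA. Its difference from VEN was 0.23 (SE 0.19, adjusted p = 0.588) without the second VEN library and 1.09 (SE 0.20, adjusted p = 0.0234 by edgeR) without the first, where 26.4% of genes were called. DESeq2 without the second VEN library gave NFE2L1 0.59 (SE 0.18, adjusted p = 0.0483) in VEN+CSA against CSA, where it called 1.98% of genes. POMP, which is needed to build the core, stood at 158 and 119 CPM in VEN+CSA, 117 and 98.7 CPM in VEN and 117 and 109 CPM in CSA, again above the other 4 in both VEN+CSA libraries. Its log2 fold changes were 0.36 (SE 0.20) against VEN, 0.25 without the second VEN library, and 0.29 (SE 0.20) against CSA.

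DDI2 and UBQLN2 had the smallest p of the 19 in both comparisons with VEN. DDI2 stood at 63.8 and 63.7 CPM in VEN+CSA, 79.6 and 82.5 CPM in VEN and 64.0 and 64.2 CPM in CSA. Both VEN libraries were above the other 4 and close to each other. The log2 fold changes of DDI2 were −0.35 (SE 0.14, adjusted p = 0.462 by edgeR) in VEN+CSA against VEN and 0.34 (SE 0.14, adjusted p = 0.633) in VEN against CSA, and −0.32 and 0.31 without the second VEN library. UBQLN2 stood at 42.6 and 46.2 CPM in VEN+CSA, 50.7 and 69.4 CPM in VEN and 43.4 and 46.5 CPM in CSA. Next by p in VEN against CSA were TXNL1, a thioredoxin-like protein of the 19S particle, at a log2 fold change of 0.52 (SE 0.27), and UBQLN1, at 0.37 (SE 0.21). TXNL1 stood at 0.21 and UBQLN1 at 0.070 without the second VEN library. In VEN+CSA against CSA ZFAND5, a proteasome activator, stood at 0.30 (SE 0.17).

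Of the MHC class I list of 14, none was called by edgeR with all 6 libraries, where 0% of genes were called. The median was 0.31 in VEN+CSA against VEN (11 above 0 and 3 below). It was 0.07 in VEN+CSA against CSA (10 and 4) and −0.21 in VEN against CSA (6 and 8). Without the second VEN library the medians with VEN were 0.16 (13 and 1) and −0.15 (2 and 12). Both were thus nearer 0, while more of the list lay on the same side.

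**Figure D5:**
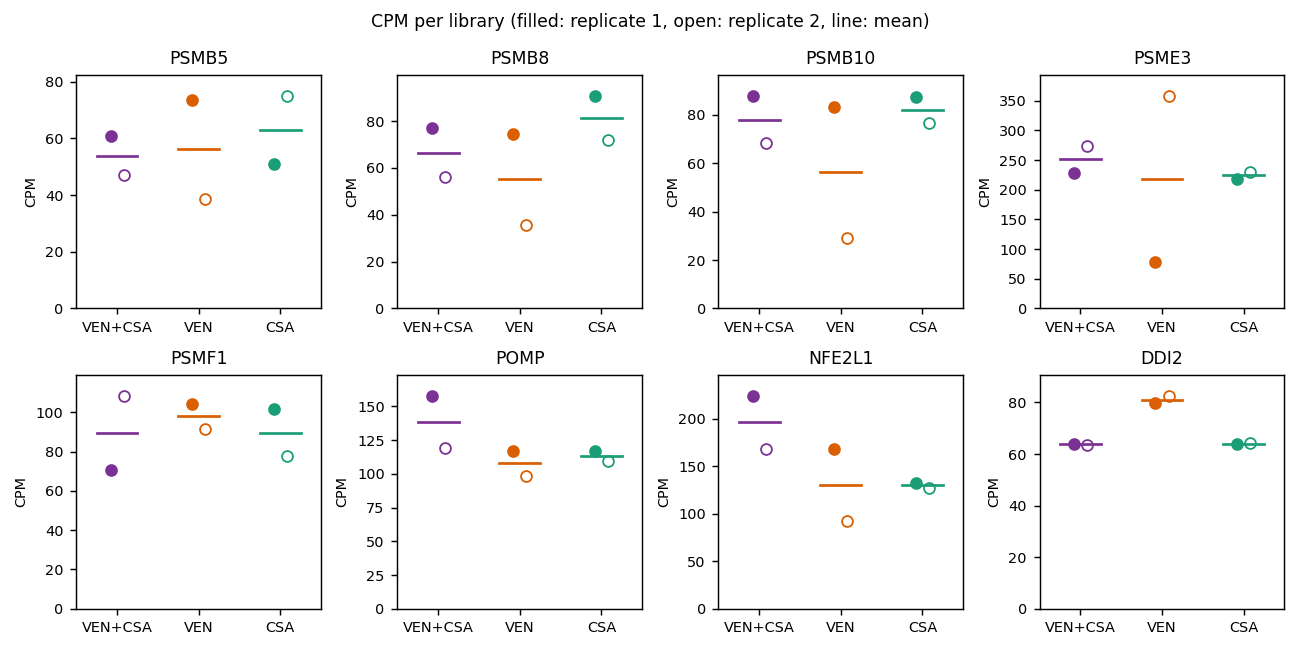
CPM of 5 members (PSMB5, PSMB8, PSMB10, PSME3, PSMF1) and of POMP, NFE2L1 and DDI2 in the 2 libraries of VEN+CSA, VEN and CSA, with the group mean as a line. The VEN points of PSME3 lie at 77.6 and 358 CPM, and both VEN points of DDI2, at 79.6 and 82.5 CPM, lie above all others of that gene.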

How the data were processed

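RNA-seq of 6 libraries in 3 groups of 2 was analysed. Per the labels' protocols, Trizol was used for extraction and the KAPA RNA HyperPrep kit for the libraries. The submitters' processing notes name hg38, STAR, RSEM and DESeq2, with no versions or roles. The authors deposited raw counts, in whole numbers, with 1 value per gene and library. Low counts were mostly even (64.8% to 66.7% of those from 1 to 20), so a count may not be a single read pair. The table holds 2 further columns that no label assigns to a sample, and they were not used. Groups come from the sample titles, since the treatment entry of the labels names gavage. Libraries of a group were distinct (chi-square per degree of freedom 31.1 or more).

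Of 20263 genes, 12690 passed filterByExpr. They were scaled by TMM and tested in 1 fit of 6 libraries with edgeR 4.0.16 (robust quasi-likelihood, two-sided, 3 residual degrees of freedom before moderation) in R 4.3.3, with Benjamini-Hochberg adjustment over all genes at 0.05. The fit was also run on simulated data. No simulated library departed from its group as the second VEN library did, so that run cannot say how the fit handles it. Alternatives were DESeq2 1.42.0, limma 3.58.1, other scalings and filters, a GC correction, the replicate number as a block and each library left out. Two-sided exact permutation tests were used for ratios. Symbols, coordinates and exon lengths came from GENCODE release 29 (GRCh38) and promoters from RefSeq. By annotation, 10 members have named pseudogenes, and others overlap further genes, so their counts may be shared. Named genes were the cutting and immuno subunits, caps, assembly factors, members called in any of 3 fits, and the 3 smallest p in each direction. The members and lists were chosen with earlier results of these data known. Some genes of these lists are not reported here.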

Additional observations from a re-analysis of the deposited data

How the results depend on the processing

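Of 361 alternative values for the 19 named gene results, 344 kept their direction and side of the threshold, 9 passed the threshold only there and 8 changed sign. Scaling by library size alone turned PSMD1 (0.10), PSMC3IP (0.070) and PSME4 (0.13) in VEN+CSA against VEN, and PSMD11 (−0.0083) and PSMD1 (−0.12) in VEN against CSA; it moved the median of all genes in the same direction. Leaving out the second VEN library turned PSME4 (0.0038, and 0.00045 by DESeq2), and leaving out the first turned PSME3 (−0.51, against 1.70 without the second). With a library left out PSME4 ran from −0.34 to 0.0038. Members called numbered 0 to 10 in VEN+CSA against VEN, 0 in VEN+CSA against CSA and 0 to 16 in VEN against CSA when each library was left out in turn. The 10 and the 16 came from leaving out the first VEN library, where 26.4% and 33.8% of all genes were called. Without the second VEN library DESeq2 called 1 in VEN+CSA against VEN (3.79% of all genes) and 1 in VEN against CSA (0.827%). Library size alone, also without the second VEN library, called 1 in VEN+CSA against VEN, where it called other genes too. Each was PSME3, and each of these fits rests on 1 VEN library. The members' median with a library left out ran from 0.029 to 0.27, −0.07 to 0.04 and −0.28 to −0.019 in the 3 comparisons. It was 0.38 and −0.41 with library size alone in the comparisons with VEN, and 0.022 (DESeq2), −0.032 and 0.0020 (library size alone) without the second VEN library. With a library left out, the log2 ratio PSMB8/PSMB5 ran from −0.54 to 0.36 in VEN+CSA against CSA and from −0.88 to 0.016 in VEN against CSA, and PSMB10/PSMB7 from −0.18 to 0.85 in VEN+CSA against VEN and from −0.92 to 0.11 in VEN against CSA, while PSMB9/PSMB6 ran from −0.038 to 0.52 in VEN+CSA against CSA and from −0.64 to 0.10 in VEN against CSA. With the GC trend removed, the members' medians were 0.13, 0.0087 and −0.18. The lean in VEN against CSA was then larger, with 11 members above 0 and 38 below, against 16 and 33 in the main fit. PSMD12 (0.13), PSMD1 (0.092) and PSMC3 (−0.19) in VEN against CSA and PSME4 (−0.048) in VEN+CSA against VEN were nearer 0. PSMA1 (0.46), PSME3IP1 (0.36) and PSMC3IP (−0.26) in VEN+CSA against VEN were further from 0. The cause was not tested.

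Replicate numbers were shared across groups, and same-numbered libraries deviated together (r = 0.19, 0.25 and 0.16), but with 2 numbers and no label of a shared day they share only a number. With the replicate number as a block, 0 of all 12690 genes were called in each comparison, so that 0 members were called says nothing about the members. The members' medians were then 0.15, −0.0033 and −0.14. With 2 libraries a group, the median SE of a member's log2 fold change was 0.20, which limits what could be called.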
